A study of Mus musculus with 16 samples.

Results

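The loci of 10 genes that encode Polycomb subunits were described across 16 ATAC-seq peak lists: Ezh2, Eed, Suz12, Jarid2, Mtf2, Ring1, Rnf2, Bmi1, Pcgf6 and Kdm2b. ATAC-seq marks open DNA by transposase insertion. The genes were chosen by function, and each locus is the gene with 20 kb on either side (mm10). They are 10 of 21887 protein-coding genes, and their loci hold 96 of the 163173 regions that result when the peaks of all 16 lists are merged. An end peak lies no more than 1000 bp from one of the 2 ends of a gene.

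Polycomb proteins keep developmental genes silent and work in 2 families of complexes. Polycomb repressive complex 2 (PRC2) methylates histone H3 at lysine 27: EZH2 is its catalytic subunit, EED and SUZ12 complete the core, and JARID2 and MTF2 are accessory subunits that help it reach DNA. Polycomb repressive complex 1 (PRC1) ubiquitinates histone H2A through RING1 (RING1A) or RNF2 (RING1B). BMI1 (PCGF4) marks a canonical form of PRC1. PCGF6 marks a variant form for which WDR5 has been reported as a subunit, and KDM2B brings a further variant form to unmethylated CpG islands. In mouse ESCs, Polycomb complexes sit at the promoters of many lineage genes.

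All cells carried an Rx:GFP knock-in (Rx is Rax, a gene of the eye field). The embryoid bodies (EBs) came from SFEBq culture (GMEM, 5% KSR, and 2% matrigel from day 1). They were Wdr5 and p53 double knockouts (DKO EBs, with no day in the labels) and parental EBs (day 4 by label). The ESCs were kept in 2i+LIF. They were double knockouts that carried a WDR5 S91K-Y191F plasmid (S91K-Y191F ESCs), a wild-type WDR5 plasmid (WDR5WT ESCs) or the backbone plasmid alone (backbone ESCs), then p53 knockout clones C9 and H9, and parental ESCs. The series title calls the added WDR5 human. Each of the 8 groups had 2 replicates, and the labels do not say whether these were separate cultures. Each p53 knockout group is 1 clone, and the labels do not say whether the double knockouts are.

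The peak lists hold no reads, so the depth is unknown. The EB lists had 75673 to 93646 peaks and the ESC lists 1535 to 32709. The shortest ESC lists were those of the backbone ESCs (1535 and 2492), 1 S91K-Y191F library (5174) and 1 parental library (5330). An end peak was found at 64.6% to 66.7% of all genes in the EB lists and at 1.25% to 54.9% in the ESC lists. Marker genes of each stage were checked against the labels by their end peaks. Of the pluripotency genes, Zfp42 had one in 12 ESC lists, Nanog in 9, Sox2 in 8, Klf4 in 7, Pou5f1 in 4 and Esrrb in 0. Of the neuroectoderm and eye field genes, Rax had one in 8 ESC lists, Sox1 and Pax6 in 3 each, and Six3 and Lhx2 in 0. Of the primitive streak and endoderm genes, Sox17 had one in 8 ESC lists, Gata6 in 5, Mesp1 in 2 and T in 0. Of the trophectoderm genes, Cdx2 had one in 5 ESC lists and Elf5 in 0. Each of these genes had one in all 4 EB lists but Esrrb, Six3 and Elf5 (2 each) and Sox17 (1). Lhx2 and T were thus in all EB lists and 0 ESC lists, but the markers as a set did not separate the stages. Wdr5 had an end peak in the 4 EB lists and in WDR5WT replicate 2. Trp53 had one in the 4 EB lists and 5 ESC lists. Such peaks do not show whether a coding part was deleted. In bulk samples, fewer open cells and less opening per cell cannot be told apart.

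The DNA just before the start sites is shown for Eed and Suz12, the core partners of EZH2, and for the 3 genes with the fewest ESC end peaks, Ring1, Bmi1 and Kdm2b. The sequences are from RefSeq (GRCm38.p6) and read 5′ to 3′ along the gene. Capitals mark matches, on either strand, to motifs that were searched for. These were the GC box, spelled GGGCGG, whose matches can overlap each other. The second was the CCAAT box, and a site of the cell cycle factor E2F was searched as GCGGGAA. A further motif was the E-box, for which the letters CACGTG were used. Eed (chr7:89980977-89981226, minus strand) and Suz12 (chr11:79992856-79993105, plus strand) had end peaks in 8 ESC lists each. Ring1 (chr17:34024681-34024930, minus strand) had one in 2 ESC lists and Bmi1 (chr2:18676768-18677017, plus strand) in 1. Kdm2b had one in 0 ESC lists: the 79 bases before the gene (chr5:122989271-122989349, minus strand) are set beside 250 bases before a second RefSeq start site inside the gene (chr5:122900368-122900617, minus strand). Downstream starts in Kdm2b are known for a short protein form that lacks the demethylase domain.
Eed start: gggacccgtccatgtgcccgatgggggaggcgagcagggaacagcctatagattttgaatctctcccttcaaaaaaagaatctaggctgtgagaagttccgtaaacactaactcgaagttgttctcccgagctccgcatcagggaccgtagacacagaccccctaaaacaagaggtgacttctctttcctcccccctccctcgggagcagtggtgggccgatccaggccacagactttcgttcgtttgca
Suz12 start: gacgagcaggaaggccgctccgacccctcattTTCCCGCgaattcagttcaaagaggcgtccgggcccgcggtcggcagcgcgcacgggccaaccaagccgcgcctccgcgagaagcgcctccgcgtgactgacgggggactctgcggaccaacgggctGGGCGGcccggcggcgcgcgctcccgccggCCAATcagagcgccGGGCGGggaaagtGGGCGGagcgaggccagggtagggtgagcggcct
Ring1 start: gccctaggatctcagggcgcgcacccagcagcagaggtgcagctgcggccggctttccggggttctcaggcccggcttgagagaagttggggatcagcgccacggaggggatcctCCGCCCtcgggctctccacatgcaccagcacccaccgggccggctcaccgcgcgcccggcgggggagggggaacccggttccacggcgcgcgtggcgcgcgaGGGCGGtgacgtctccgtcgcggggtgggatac
Bmi1 start: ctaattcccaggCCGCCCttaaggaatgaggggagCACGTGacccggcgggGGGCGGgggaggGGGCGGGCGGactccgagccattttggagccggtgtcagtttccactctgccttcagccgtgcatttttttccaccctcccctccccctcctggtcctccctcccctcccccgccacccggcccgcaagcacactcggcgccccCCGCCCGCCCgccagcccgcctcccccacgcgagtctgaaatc
Kdm2b gene start: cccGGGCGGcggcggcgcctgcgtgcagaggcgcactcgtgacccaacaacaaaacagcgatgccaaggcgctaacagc
Kdm2b internal start: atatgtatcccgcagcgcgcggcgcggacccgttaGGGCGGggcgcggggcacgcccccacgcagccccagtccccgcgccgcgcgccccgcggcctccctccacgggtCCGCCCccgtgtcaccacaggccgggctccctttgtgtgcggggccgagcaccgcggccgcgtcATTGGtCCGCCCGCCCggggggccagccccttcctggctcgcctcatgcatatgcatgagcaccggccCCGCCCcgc

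These windows were rich in CpG. Over the 250 bases before the start site nearest to each gene's own start, the 10 genes had 12 (Eed) to 37 (Suz12) CpGs, with a median of 23. The median over all 32851 RefSeq promoter windows of the same length was 6. The GC box was present in 8 of the 10 windows and in 32.7% of all promoters, and CCAAT in 3 of the 10 and in 33.8%. All promoters include further starts of a gene, so the 2 sides were not chosen alike. With their further starts the 10 genes had 15 windows, of which 11 held the GC box and 6 CCAAT. Those further starts had 22 CpGs (Jarid2), 2 (Mtf2), and 12, 36 and 38 (Kdm2b). The E2F letters occurred in the Suz12 window only (3.82% of all promoters), and the E-box in the Bmi1 window only (6.02%). ATGGCGGC (YY1), CCGGAAGT (ETS) and GCATGCGC (NRF1) had no match in the 10 windows, and were in 1.03%, 2.88% and 2.26% of all promoters. Ring1 and Kdm2b, with an end peak in 2 and 0 ESC lists, had 30 and 27 CpGs. Bmi1 (1 ESC list) had 21 and Pcgf6 (4 ESC lists) had 14. Of the genes with one in at least 8 ESC lists, Eed had 12, Rnf2 20, Suz12 37, and Ezh2, Jarid2 and Mtf2 23 each. Whether CpG number goes with ESC end peaks was not tested. The windows of Kdm2b and Ezh2 include 171 and 240 bases of the gene, and the 79 bases shown before Kdm2b hold 10 CpGs.

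All 10 genes had an end peak in all 4 EB lists, whereas in the ESC lists they ran from Ezh2 (11 of 12 lists) to Kdm2b (0 of 12). An end peak in all 4 EB lists was found at 61.2% of all genes. Eed, Suz12, Jarid2, Mtf2 and Rnf2 each had one in 8 ESC lists, Pcgf6 in 4, Ring1 in 2 and Bmi1 in 1. Of all genes, 3.98% had one in at least 11 ESC lists, 29.0% in at least 8, and 40.8% in none.

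**Figure D1:**
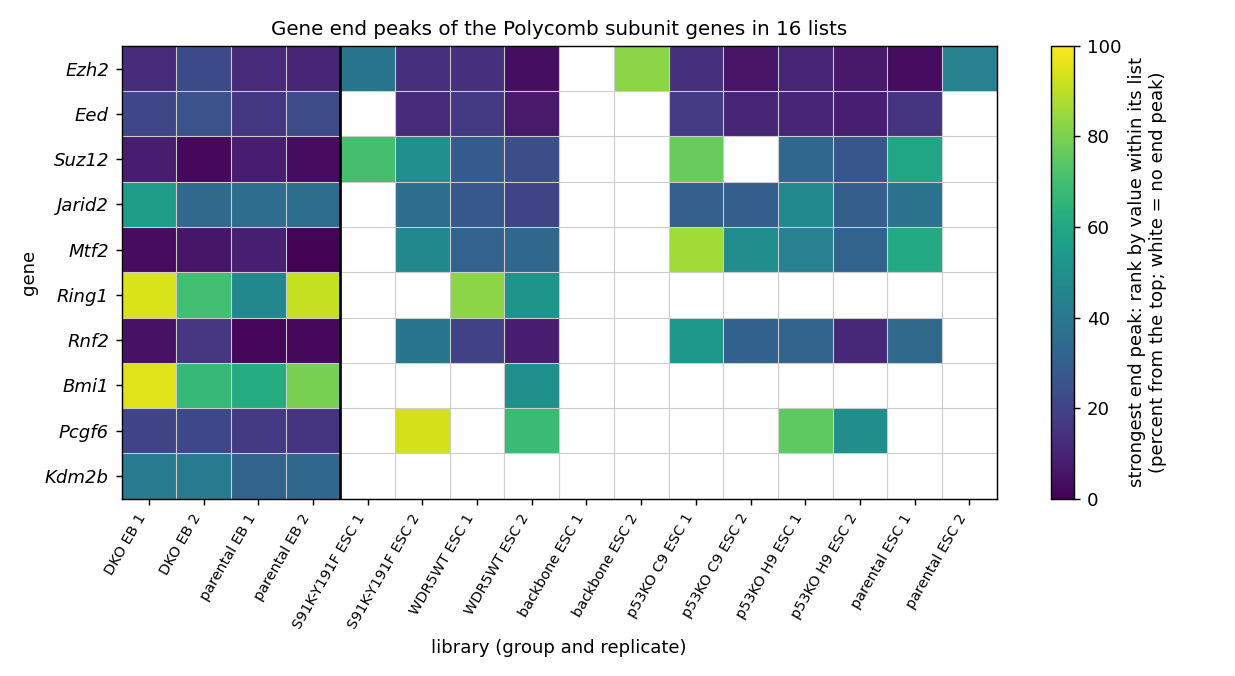
Strongest end peak of each gene (rows) in each library (columns, EB libraries left of the line), coloured by its rank by the authors' value within its own list, in percent from the top; white means no end peak. All 10 rows are filled in the 4 EB lists, and Kdm2b is empty in all 12 ESC lists.

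**Figure D2:**
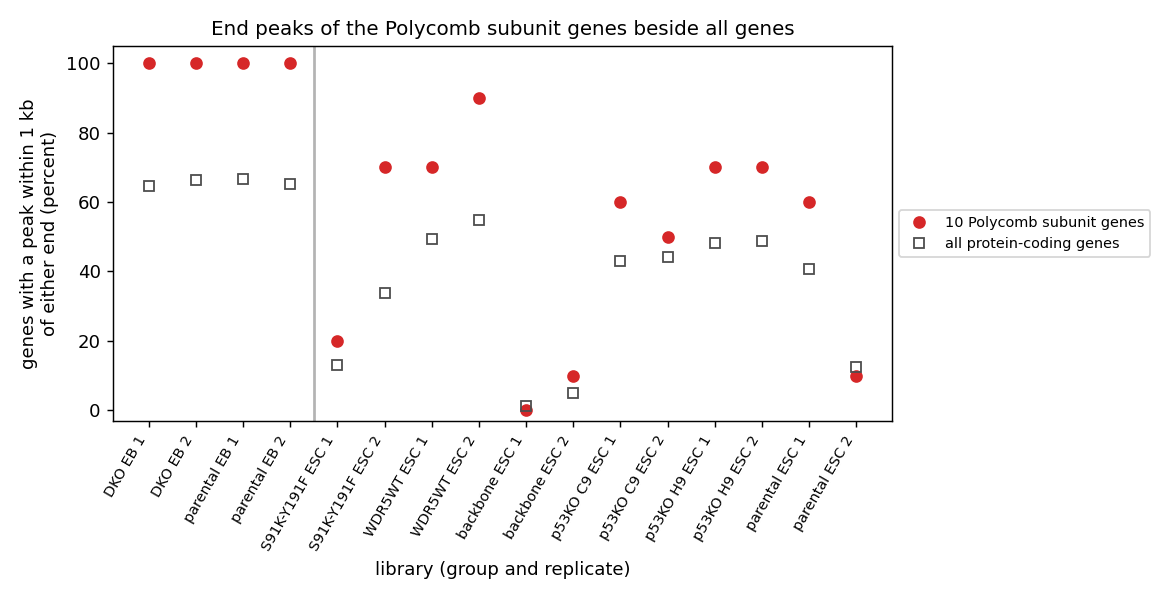
Percent of the 10 Polycomb subunit genes (filled circles) and of all 21887 protein-coding genes (open squares) with a peak within 1 kb of either end, by library. Backbone ESC lists have 0 and 1 of the 10 genes, parental ESC replicate 2 also has 1, and the EB lists have all 10.

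In EBs the end peaks of Ezh2, Eed, Rnf2, Pcgf6 and Kdm2b, 5 of the 10, had a fold enrichment (the authors' value for each peak) that was lower in both DKO EB lists than in both parental EB lists, and 0 of the 10 lay the other way. The remaining 5 overlapped. Among the 13398 genes with an end peak in all 4 EB lists, 36.1% were likewise lower in both DKO EB lists and 7.14% higher in both. This split was looked at after the values were seen, and the folds were not rescaled between lists, so they describe the lists and not a change at these genes.

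Ezh2, the PRC2 methyltransferase gene, had an end peak in every list but backbone replicate 1. In the EB lists its peak had a fold enrichment of 4.80 and 4.59 in DKO EBs, against 5.28 and 5.45 in parental EBs. The ESC lists give a signal in place of the fold, summed along the peak and of unstated scaling between lists, so ESC and EB values are not set against each other. Its signal was 429.9 and 1079 in S91K-Y191F ESCs, 1358 and 2718 in WDR5WT ESCs, and 239 in backbone replicate 2. It was 1141 and 1942 in clone C9, 1614 and 2059.9 in clone H9, and 1967 and 385 in parental ESCs. The peak stood high in the long lists (the top 3.72% in WDR5WT replicate 2, 3.45% in parental replicate 1) and low in backbone replicate 2, at the top 82.6%. Its width was 502 to 1626 bp in the ESC lists and 1394 to 1594 bp in the EB lists, with the centre within 381 bp of the start. The same presence in all 16 lists was seen at 656 genes (3.0%), among them Fbrs and Max of variant PRC1.

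Eed, which encodes the subunit that binds methylated lysine 27, had an ESC end peak in the top 7.31% to 17.6% of each list that held one. It was absent from both backbone lists, S91K-Y191F replicate 1 and parental replicate 2, which are the 4 shortest lists. The signal was 1146 in S91K-Y191F replicate 2, 1232 and 2138 in WDR5WT ESCs, 1008 and 1396 in clone C9, 1578 and 1861 in clone H9, and 1095 in parental replicate 1. Fold enrichment was 4.32 and 4.44 in DKO EBs, against 4.88 and 4.49 in parental EBs, so the parental values lay slightly above. Jarid2, Mtf2 and Rnf2 had end peaks in exactly the same lists as Eed, as did 2793 genes in all (12.8%).

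Suz12, the subunit needed for a stable PRC2 core, had an end peak in both S91K-Y191F lists, where Eed, Jarid2, Mtf2 and Rnf2 had it in 1. Its signal there was 275 and 447, near the top 70.5% and 50.4% of those lists. It was 834 and 1073 in WDR5WT ESCs, 279.6 in clone C9 replicate 1, 716 and 893 in clone H9, and 396 in parental replicate 1. Clone C9 replicate 2, both backbone lists and parental replicate 2 had none. Only 4 genes shared this presence over the 16 lists. In EBs the Suz12 start was among the stronger peaks, with folds of 5.28 and 6.92 in DKO EBs, against 5.78 and 6.47 in parental EBs (the top 1.98% to 7.73%), and the groups overlapped.

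Jarid2 and Mtf2, the accessory PRC2 genes, differed in how strongly their starts ranked in EBs. Mtf2, whose protein binds CpG-rich DNA, had folds of 5.96 and 5.97 in DKO EBs, against 5.67 and 8.10 in parental EBs; the last was in the top 0.398% of its list. Jarid2 had 3.38 and 4.10 in DKO EBs, against 3.88 and 3.93 in parental EBs, in the top 34.4% to 55.8%. The groups overlapped at both genes. In 7 of the 8 ESC lists with a peak, all but clone H9 replicate 1, Jarid2 ranked above Mtf2 by signal. The Jarid2 signal was 505 to 1202 (top 20.6% to 47.9%) and the Mtf2 signal 244 to 814 (top 31.3% to 85.9%). That signal is summed along the peak, so the order depends on peak width. By the score, which is per base and capped at 1000, Mtf2 was above in S91K-Y191F replicate 2 and both WDR5WT lists. The same held in clone C9 replicate 2 and clone H9 replicate 2. Jarid2 had the higher score in clone C9 replicate 1 and clone H9 replicate 1, and both genes had 1000 in parental replicate 1.

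The Jarid2 locus held a region inside the gene, 139 kb from its start (chr13:44869519-44870069), that was in all 12 ESC lists and in 0 EB lists. It was 1 of 110 such regions among all 163173. Its signal was 1417 and 1708 in S91K-Y191F ESCs, 734 and 839 in WDR5WT ESCs, and 1283 and 1369 in backbone ESCs. It was 610.4 and 631 in clone C9, 524 and 469.7 in clone H9, and 1653 and 1547 in parental ESCs. The 6 values of the S91K-Y191F, backbone and parental lists all lay above the 6 of the WDR5WT and p53 knockout lists. That order was noticed after the values were seen; it held at 46 of the 110 regions (41.8%) and at 0 of the 197 regions present in all 16 lists. The authors removed blacklisted regions from the EB lists, as their names say. Whether this region lies in a blacklisted interval was not tested. Among the 1535 strongest peaks of each list it was present in the S91K-Y191F, backbone and parental ESC lists and in 0 of the others. That cut ranks by the same values and keeps all of backbone replicate 1, so it restates the order and adds no support to it.

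**Figure D3:**
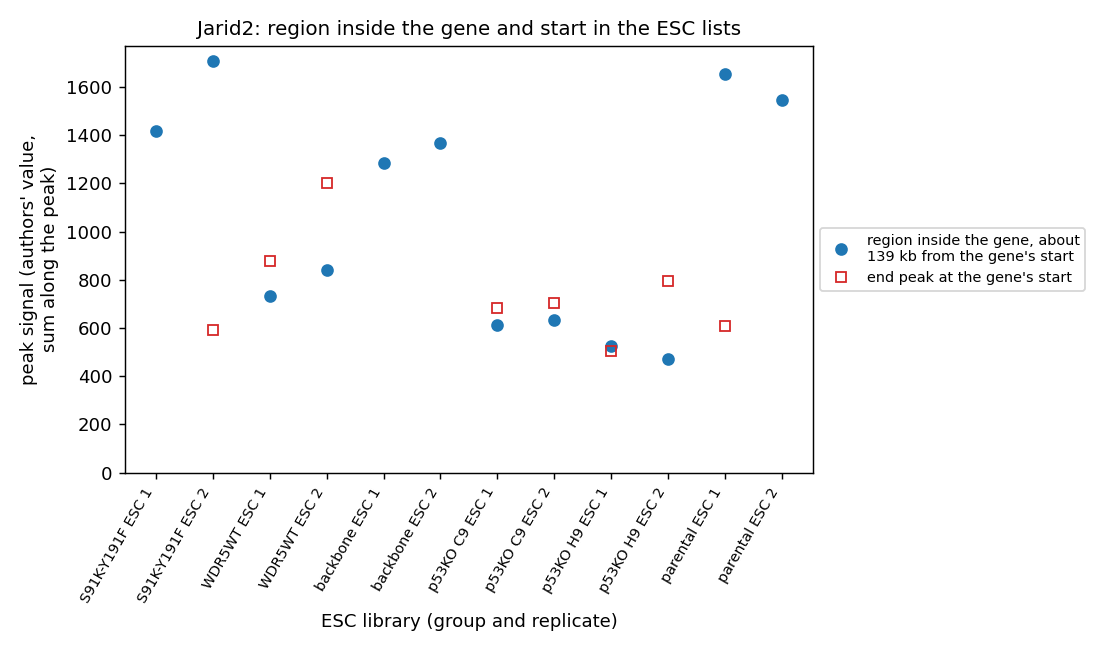
Authors' signal of the Jarid2 region 139 kb into the gene (filled circles) and of the end peak at the gene's start (open squares) in each ESC library; a missing square means no end peak. The region inside the gene lies at 1283 or above in the S91K-Y191F, backbone and parental lists and at 839 or below in the others.

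Other Jarid2 regions ran the opposite way. A region 24.8 kb into the gene (chr13:44755262-44755985) and one 18.6 kb before it (chr13:44711905-44712394) were in all 4 EB lists and 0 ESC lists. The first had folds of 4.48 and 5.18 in DKO EBs, against 6.75 and 6.97 in parental EBs. The second had 4.32 and 5.25 in DKO EBs, against 5.40 and 5.75 in parental EBs. The share of all regions with parental folds above DKO folds was not computed, and the folds were not rescaled between lists. Another, 3.02 kb into the gene (chr13:44733270-44734314), was in all 4 EB lists and in 7 ESC lists, but in no S91K-Y191F or backbone list. Its signal was 842 and 985 in WDR5WT ESCs, 657 and 644 in clone C9, 673 and 857 in clone H9, and 652 in parental replicate 1.

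Mtf2 and Eed held the remaining regions found in many ESC lists and in 0 EB lists. At Mtf2 these lay 13.3 kb before the gene (chr5:108051966-108052681, 7 ESC lists, signal 258 to 667) and 5.07 kb before it (chr5:108060246-108060941, 5 ESC lists, signal 254 to 561). At Eed they lay 5.18 kb into the gene (chr7:89975435-89976167, 8 ESC lists, signal 542 to 919) and in the flank past its far end (chr7:89949264-89949978, 6 ESC lists, signal 240.4 to 626). With the Jarid2 region, and leaving out the Mtf2 region of 5 lists, 4 of the 96 regions (4.17%) were in at least 6 ESC lists and 0 EB lists, against 1.57% of all regions. None of these besides the Jarid2 region was in a backbone list. A further Mtf2 region, 11.5 kb into the gene (chr5:108076284-108077949), was in all 4 EB lists and 9 ESC lists. Both S91K-Y191F lists held it, with signals of 202 and 411, against none in the backbone lists.

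**Figure D4:**
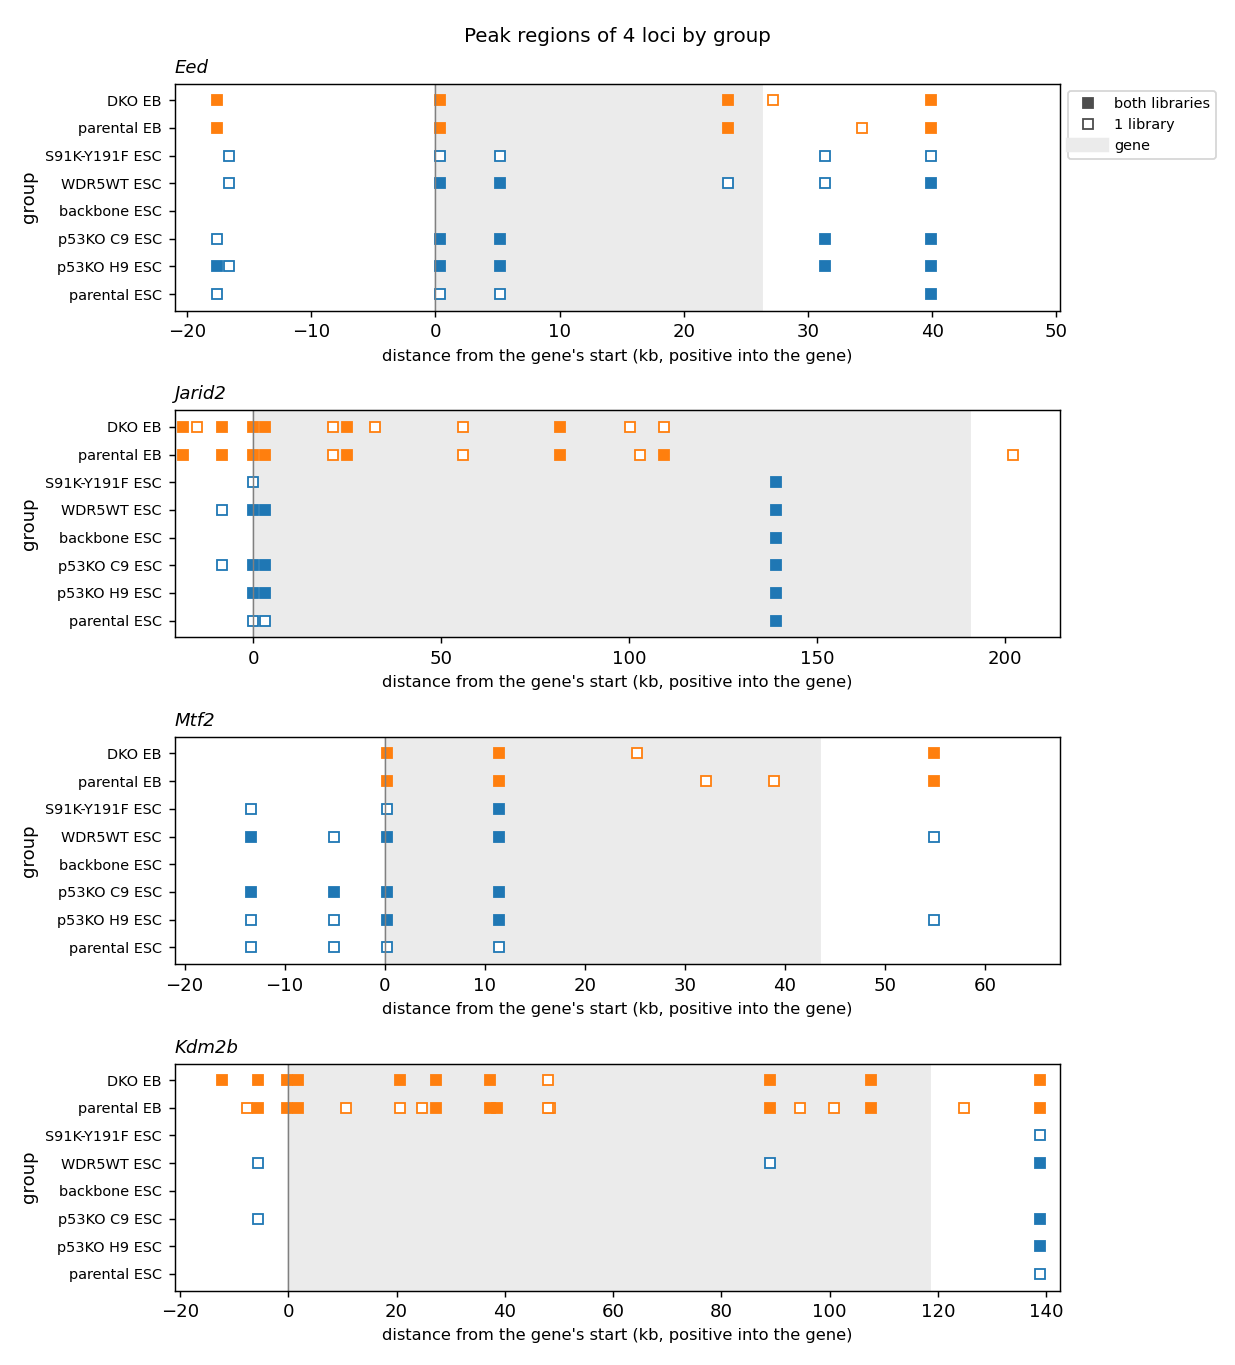
Peak regions of the Eed, Jarid2, Mtf2 and Kdm2b loci by group (rows) and distance of the region's middle from the gene's start in kb; filled squares mean both libraries of the group and open squares 1 library, orange EBs and blue ESCs, and grey spans the gene. At Jarid2 all 6 ESC groups and neither EB group have the region 139 kb into the gene, while most Kdm2b regions are seen in EBs alone.

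Among the PRC1 genes, the E3 ligase genes Ring1 and Rnf2 stood far apart. Rnf2 had an end peak in 8 ESC lists, with a signal of 559 in S91K-Y191F replicate 2, 1130 and 2096 in WDR5WT ESCs, 417 and 694 in clone C9, 748 and 1624 in clone H9, and 657 in parental replicate 1. In EBs its folds were 5.61 and 4.98 in DKO EBs, against 7.13 and 6.92 in parental EBs. This order, without overlap, held at 36.1% of the genes with an end peak in all 4 EB lists. Ring1 had an ESC end peak in both WDR5WT lists only, with signals of 265 and 509.6. Its EB folds were 2.68 and 3.25 in DKO EBs, against 3.55 and 2.76 in parental EBs, in the top 46.7% to 94.5% of each list. The merged Ring1 start region also lies within 1 kb of an end of H2-Ke6, so a peak there cannot be given to 1 gene. Its presence over the 16 lists was shared by 166 genes (0.758%).

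Bmi1 and Pcgf6, whose proteins set canonical PRC1 and the PCGF6 variant apart, had few ESC end peaks. Bmi1 had 1, in WDR5WT replicate 2 (signal 529), and its region also lies near an end of Commd3. Its EB folds were low, 2.66 and 3.30 in DKO EBs, against 3.21 and 2.97 in parental EBs. Pcgf6 had ESC end peaks of low signal in S91K-Y191F replicate 2 (218), WDR5WT replicate 2 (359.9) and both clone H9 lists (296 and 496). Its EB folds were 4.35 and 4.62 in DKO EBs, against 4.84 and 4.98 in parental EBs, so its start ranked well above those of Ring1 and Bmi1 in each EB list. Only 9 genes shared the Pcgf6 presence, and 506 that of Bmi1, among them Wdr5.

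Kdm2b was the gene with the most regions, 19, of which 16 were in EB lists only and 7 in a single list. Of all regions, 68.0% were in EB lists only. Kdm2b spans 119 kb, and region numbers were not scaled by gene length. Its start had folds of 3.68 and 3.89 in DKO EBs, against 4.00 and 4.03 in parental EBs, and no peak in any ESC list. Presence in all 4 EB lists and 0 ESC lists was seen at 6.26% of all gene ends, among them those of Bcorl1 and E2f6 of variant PRC1. The internal start, 88.9 kb into the gene, ranked higher than the gene's own start in every EB list. Its folds were 4.96 and 4.98 in DKO EBs, against 4.88 and 5.86 in parental EBs. WDR5WT replicate 2 had a peak there with a signal of 848, while 11 ESC lists had none. Further Kdm2b regions in all 4 EB lists and 0 ESC lists lay 1.85, 27.3, 37.3 and 108 kb into the gene, with folds of 2.58 to 4.34. A region 5.62 kb before the gene (chr5:122994505-122995268) was in the 4 EB lists and, at signals of 224 and 259, in WDR5WT replicate 1 and clone C9 replicate 1.

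Over the 10 loci, peaks per list numbered 52 and 53 in DKO EBs, against 66 and 57 in parental EBs. They numbered 4 and 16 in S91K-Y191F ESCs, 23 and 30 in WDR5WT ESCs, 1 and 2 in backbone ESCs, 22 and 18 in clone C9, 24 and 22 in clone H9, and 20 and 3 in parental ESCs. The single backbone peak common to both lists was the Jarid2 region inside the gene. The median per locus was 4.5 to 5.5 in the EB lists, against 3 to 4 for all protein-coding genes. In ESCs it was 1 in S91K-Y191F replicate 2, 2.5 and 3 in WDR5WT ESCs, 2 and 1 in clone C9, 2 in both clone H9 lists and 1.5 in parental replicate 1, against 1 for all genes in each of these lists. In the 4 shortest lists it was 0, as for all genes. Of the 96 regions, 57 (59.4%) were in EB lists only, 7 (7.29%) in ESC lists only and 32 (33.3%) in both. Among all regions these shares were 68.0%, 9.07% and 23.0%. At 32 of the 96 regions (33.3%) a single list had the peak, against 41.7% of all regions. Some regions in these windows lie at the ends of neighbouring genes, such as Hikeshi beside Eed, Taf5 beside Pcgf6 and Rnf34 beside Kdm2b.

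**Figure D5:**
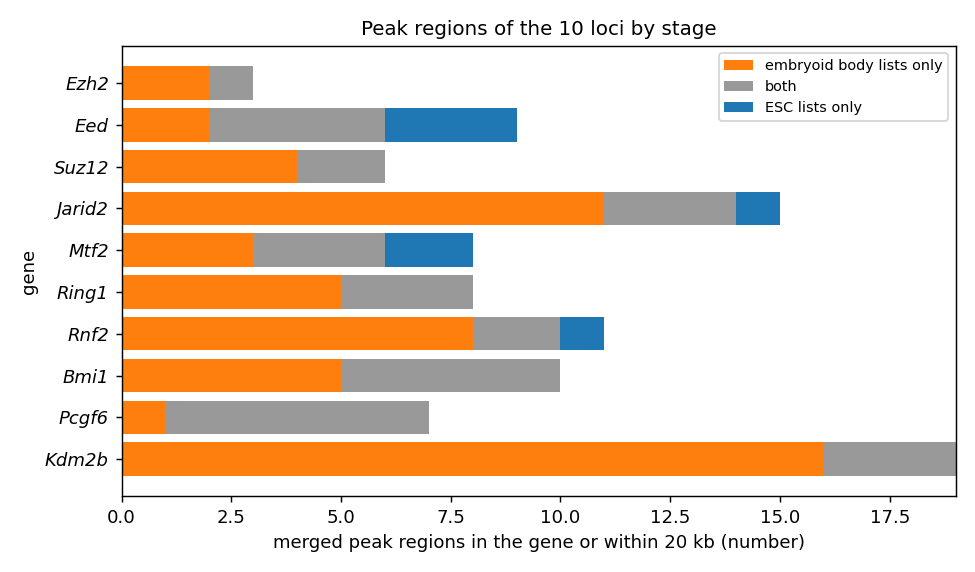
Number of merged peak regions at each locus (rows), split into regions in EB lists only (orange), in both (grey) and in ESC lists only (blue). Kdm2b has 19 regions, 16 of them in EB lists only, and Ezh2 has 3. Numbers are not scaled by gene length, and 68.0% of all regions are in EB lists only.

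For the comparisons between groups, a gene end or region was called where all libraries on one side, and none on the other, had a peak. No test was run: an exact test of presence cannot give a p below 0.333 with 2 libraries on each side, or below 0.0667 with 4 against 2. Counts are given beside the share of all gene ends or regions called the same way. Comparisons that share a group share its libraries, and shares of called features follow the lengths of the lists compared. With the lists cut to the strongest peaks at the length of the shortest one compared, every comparison with backbone ESCs had 0 gene ends and at most 1 region called. That cut kept 1535 peaks, and each list then held at most 1 end peak of the Polycomb subunit genes and at most 3 locus peaks. These low counts were therefore nearly fixed by the cut, and nothing about list length as a cause is drawn from them.

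In EBs, end peaks were present at all 10 genes in both genotypes: DKO EBs alone had 0 and parental EBs alone 0 (0.694% and 0.818% of all gene ends). Of 90 locus regions, 1 was in DKO EBs only and 5 in parental EBs only, shares of 1.11% and 5.56%, against 4.69% and 4.27% of all regions. The DKO EB region lay 12.3 kb before Kdm2b (folds 2.62 and 3.36). The parental EB regions lay 7.27 kb into Bmi1 (3.79 and 3.37), 38.5 kb into Kdm2b (3.05 and 2.95), 1.01 kb before Ring1 (2.13 and 2.40), 16.1 kb before Suz12 (2.75 and 3.14) and past the far end of Rnf2 (2.57 and 3.06). All 6 were weak, none better than the top 48.1% on average over its lists. Without 1 of the 4 libraries, in turn, 13 to 19 regions were called, and the excess of parental EB regions was lost without either DKO EB library (7 against 6, and 9 against 8). A peak in all 4 lists was found at 38 of the 90 regions (42.2%), against 28.4% of all regions.

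The backbone ESC lists were the shortest and held few peaks at these loci. Against parental ESCs, 0 of the 10 gene ends were in backbone ESCs only and 0 in parental ESCs only (0.0183% and 7.92% of all gene ends). Of 20 regions, 0 were in backbone ESCs only and 1 in parental ESCs only, at the Hikeshi end beside Eed (0.43% and 11.6% of all regions). Without parental replicate 2 the counts were 5 gene ends and 18 regions, all in parental ESCs only, and without backbone replicate 2 they were 1 gene end and 2 regions. Against the p53 knockout clones, 0 gene ends were in backbone ESCs only and 4 in the clones only, those of Eed, Jarid2, Mtf2 and Rnf2 (0.228% and 34.1% of all gene ends). Of 33 regions, 0 were in backbone ESCs only and 10 in the clones only (1.89% and 42.8% of all regions).

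The WDR5 plasmids were compared with the backbone and with each other. Against backbone ESCs, WDR5WT ESCs alone had the end peaks of Eed, Suz12, Jarid2, Mtf2, Ring1 and Rnf2, 6 of 10, and backbone ESCs alone had 0 (43.7% and 0.219% of all gene ends). Of 33 regions, 19 were in WDR5WT ESCs only and 0 in backbone ESCs only (64.8% and 2.19% of all regions), so the loci followed the lists as a whole. S91K-Y191F ESCs alone had 1 end peak against backbone ESCs, that of Suz12, and backbone ESCs alone 0 (8.32% and 0% of all gene ends). Of 16 regions, 2 were in S91K-Y191F ESCs only, the Suz12 start and the Mtf2 region 11.5 kb into the gene, and 0 in backbone ESCs only (15.6% and 0.408% of all regions). Without S91K-Y191F replicate 1, the shortest of the 4 plasmid-carrying WDR5 lists, these counts were 6 gene ends and 14 regions, and without backbone replicate 2 there were 2 gene ends.

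Against WDR5WT ESCs, S91K-Y191F ESCs alone had 0 end peaks and WDR5WT ESCs alone 1, that of Ring1 (0.366% and 15.9% of all gene ends). Of 34 regions, 0 were in S91K-Y191F ESCs only and 8 in WDR5WT ESCs only (2.45% and 34.4% of all regions). These 8 lay in the loci of Bmi1 (3), Ring1 (2), Pcgf6 (2) and Jarid2 (1, the region 3.02 kb into the gene). Those of the Bmi1 locus were at an end of Commd3, at an end of Spag6 and inside Spag6. In the Ring1 locus they were the shared start of Ring1 and H2-Ke6, and a region at ends of H2-Ke6 and Slc39a7. Those of the Pcgf6 locus were at ends of Ina and Nt5c2 and of Taf5. Without S91K-Y191F replicate 2 the counts were 5 gene ends and 17 regions. Without WDR5WT replicate 1 they were 2 gene ends and 14 regions. At equal list length, 0 gene ends were called, and 1 region was in S91K-Y191F ESCs only and 0 in WDR5WT ESCs only.

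WDR5WT ESCs resembled the p53 knockout clones more closely in list length, and few loci were called. WDR5WT ESCs alone had 1 end peak, that of Ring1, and the clones alone 0 (1.15% and 0.119% of all gene ends). Of 39 regions, 2 were in WDR5WT ESCs only, at Ring1 and at the Ina and Nt5c2 ends beside Pcgf6, and 0 in the clones only (3.25% and 1.85% of all regions). Without WDR5WT replicate 1 these counts were 2 gene ends and 6 regions. The p53 knockout clones and parental ESCs differed at 0 gene ends either way (4.5% of all gene ends in the clones only and 0.356% in parental ESCs only). Of 35 regions, 1 was in the clones only, the Eed flank region (chr7:89949264-89949978), and 0 in parental ESCs only (11.9% and 2.44% of all regions). Without parental replicate 1 the counts were 4 gene ends and 9 regions, all in the clones only, and without clone C9 replicate 2 there were 2 regions. Without parental replicate 2, 1 region was in the clones only and 3 in parental ESCs only. At equal list length, 0 regions were in the clones only and 1 in parental ESCs only.

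Between stages, EB and ESC lists differ in caller output as well as in cells, and the part of each was not tested. Parental EBs alone had the end peaks of Ring1, Bmi1, Pcgf6 and Kdm2b, 4 of 10, against parental ESCs, which alone had 0 (24.9% and 0.599% of all gene ends). Of 80 regions, 32 were in parental EBs only and 1, the Jarid2 region inside the gene, in parental ESCs only (36.5% and 1.42% of all regions). Without parental ESC replicate 1, 9 end peaks were in parental EBs only, and without parental EB replicate 2, 49 regions were. At equal list length, 1 gene end was in parental EBs only and 1 in parental ESCs only, and the regions were 3 and 2. DKO EBs alone had 9 end peaks against backbone ESCs, all but that of Ezh2, and backbone ESCs alone 0 (58.3% and 0.274% of all gene ends). Of 66 regions, 39 were in DKO EBs only and 1, the same Jarid2 region, in backbone ESCs only (49.6% and 0.852% of all regions).

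All 4 EB libraries were also set against all 12 ESC libraries, a comparison chosen after the data were seen. EBs alone had 1 end peak, that of Kdm2b, and ESCs alone 0 (6.26% and 0.0228% of all gene ends). Of 96 regions, 10 were in EBs only and 1 in ESCs only (10.3% and 0.0674% of all regions). The 10 comprised 5 regions of Kdm2b, 3 of Jarid2, 1 of Suz12 and 1 of Rnf2. At equal list length, 0 gene ends and 0 regions were called either way. With 1535 peaks kept, each list held at most 1 of the 10 end peaks and at most 3 locus peaks. The loss of these calls was therefore nearly fixed by the cut, and nothing is drawn from it.

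Other genes of the Polycomb pathway were followed in a list of 41 chosen by function. It included Wdr5, and 6 genes listed for H3 lysine 27 demethylation and H2A deubiquitination (Kdm6a, Kdm6b, Bap1, Asxl1, Asxl2 and Usp16). Of the 41, 38 had an end peak in all 4 EB lists. The other 3 are named here after their values were seen: Phf19, an accessory PRC2 gene, had none in any list, and Bcor and Kdm6b had one in 3 EB lists each. Per list, 38 and 40 of the 41 had one in DKO EBs, against 40 in each parental EB list. In ESCs the numbers were 6 and 21 in S91K-Y191F, 27 and 36 in WDR5WT, 0 and 3 in backbone, 25 and 27 in clone C9, 30 and 31 in clone H9, and 23 and 8 in parental ESCs.

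Calls among these 41 genes are given with the share of all gene ends called the same way. WDR5WT ESCs alone had 24 against backbone ESCs (58.5%, against 43.7% of all gene ends), by alphabet first Aebp2, Asxl2, Auts2, Cbx2 and Cbx3. S91K-Y191F ESCs alone had 4 against backbone ESCs (9.76%, against 8.32%), which were Cbx3, Cbx8, Hdac2 and Rbbp4. Against WDR5WT ESCs, S91K-Y191F ESCs alone had 0 and WDR5WT ESCs alone 7 (17.1%, against 15.9%), among them Aebp2 of PRC2, Cbx2 and Cbx7 of canonical PRC1, and Pcgf3 and Pcgf5 of variant PRC1. Backbone ESCs alone had 0 against the p53 knockout clones, which alone had 18 (43.9%, against 34.1%), by alphabet first Aebp2, Asxl2, Auts2, Cbx3 and Cbx8. Backbone ESCs alone had 0 against parental ESCs, which alone had 5 (12.2%, against 7.92%): Auts2, Cbx3, Cbx8, Hdac2 and Phc1. The clones alone had 4 against parental ESCs (9.76%, against 4.5%), which were Kdm6a, Pcgf3, Phc2 and Tfdp1. Between WDR5WT ESCs and the clones, and between DKO EBs and parental EBs, 0 of the 41 were called either way.

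Between stages, DKO EBs alone had 35 of the 41 against backbone ESCs (85.4%, against 58.3% of all gene ends), by alphabet first Aebp2, Asxl2, Auts2, Bap1 and Bcorl1. Parental EBs alone had 17 against parental ESCs (41.5%, against 24.9%), by alphabet first Bap1, Bcor, Bcorl1, Cbx2 and Cbx6. All EBs alone had 2 against all ESCs (4.88%, against 6.26%), Bcorl1 and E2f6. The same calls at equal list length were not computed for these genes.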

How the data were processed

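The submitters' processing notes name the build mm10 and, without their roles, the aligner Bowtie2 2.3.5, the peak callers Genrich 0.6 and MACS2 2.1.2, and also DESeq2 and SAMtools. The deposited ESC lists give for each peak a score, a signal and a −log10 p. In every row the score equals 1000 times the signal per base, capped at 1000, so the deposited signal is a sum along the peak; it is never under 200, the q column is -1, and the caller is not given in the sources used here. The authors' EB lists give a score, a ratio (fold enrichment) and −log10 p and q, with peak names of the MACS2 form, and their names say that blacklisted regions were removed.

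Only the 21 assembled chromosomes were used, which left out 463 peaks on other sequences. Presence within 1000 bp of a gene end or in merged regions (1 bp overlap) was computed with Python 3.11.15, pandas 2.3.3 and NumPy 2.4.6, and the merging was tested on simulated lists. Gene positions and promoter sequences are from RefSeq (GRCm38.p6), where all 10 genes matched. The 10 comparisons carry no test. The genes, gene lists and rules were chosen with earlier results of these data known. All 10 genes were named. Other pathway genes were named where called, up to 5 per comparison in alphabetical order, and regions by their mean rank. Comparisons of all EBs with all ESCs and of EB folds over all genes were chosen after the data were seen. No 2 lists were identical.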

Additional observations from a re-analysis of the deposited data

How the results depend on the processing

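Counts of the 10 loci called, both directions added, were within 1.5 times the reported count in 108 of 152 settings that left out no library. Of the 108, 14 were the replicate block and 11 the 50% overlap of the shorter, described below, which could not differ. Others set 0 beside 0, so the 108 do not measure stability. With end windows of 500 and 2500 bp, with merging across 200 bp, and with an overlap of 50% of the shorter of peak and region (met by every peak by construction), no count moved beyond that. The replicate block (a peak in one library and none in the same-numbered library of the other side, for both numbers) gave the same counts by construction, such as 6 regions for DKO EBs against parental EBs and 19 for WDR5WT against backbone ESCs.

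Equal list length changed most, with gene ends at 0 for WDR5WT, S91K-Y191F and DKO EBs against backbone, for backbone against the p53 knockout clones, for S91K-Y191F against WDR5WT, and for all EBs against all ESCs, and at 2 for parental EBs against parental ESCs. Regions were then 0 for backbone against parental, S91K-Y191F against backbone and all EBs against all ESCs, and 5 for parental EBs against parental ESCs. They turned round to 1, found in the shorter lists, for WDR5WT and DKO EBs against backbone and for backbone against the clones. The same held for S91K-Y191F against WDR5WT and for the clones against parental. In each of these comparisons it was the Jarid2 region inside the gene, so they are not separate reversals. The cause was not tested, and the cut cannot test list length as one. With 1535 peaks kept, each list held at most 1 end peak of the Polycomb subunit genes and at most 3 locus peaks. The loss of calls at that length was therefore nearly fixed by the cut.

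With only those peaks whose p was at or beyond their list's median, gene ends numbered 1 for backbone against parental and against the clones, 2 for S91K-Y191F against WDR5WT and for all EBs against all ESCs, and 0 for WDR5WT against the clones. Regions numbered 3 for backbone against the clones, 10 for WDR5WT and 1 for S91K-Y191F against backbone, 4 for S91K-Y191F against WDR5WT, and 0 for WDR5WT against the clones and the clones against parental.

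Within the gene body alone (0 kb), regions numbered 2 for DKO EBs against parental EBs, 0 for backbone against parental, 9 for WDR5WT against backbone, 2 for S91K-Y191F against WDR5WT, 1 for WDR5WT against the clones, 0 for the clones against parental, 17 for parental EBs against ESCs and 21 for DKO EBs against backbone. At 10 kb they numbered 0 for backbone against parental, 5 for S91K-Y191F against WDR5WT and 1 for WDR5WT against the clones, and at 50 kb 2 for the clones against parental. A peak had to cover 50% of its region in a setting chosen after the data were seen: 4 for WDR5WT against the clones, 2 for the clones against parental and 7 for all EBs against all ESCs. With 3 of 4 p53 knockout libraries there were 16 for backbone against the clones and 2 for the clones against parental.

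Without 1 library, gene ends ranged over 0 to 5 for backbone against parental, 1 to 6 for S91K-Y191F against backbone, 1 to 5 against WDR5WT, 1 to 2 for WDR5WT against the clones, 0 to 4 for the clones against parental and 4 to 9 for parental EBs against ESCs. Regions ranged over 13 to 19 for DKO EBs against parental EBs, 1 to 18 for backbone against parental, 2 to 14 for S91K-Y191F against backbone, 9 to 17 against WDR5WT, 2 to 6 for WDR5WT against the clones, 1 to 9 for the clones against parental and 36 to 50 for parental EBs against ESCs. Direction turned for DKO EBs against parental EBs (13 and 17 without a DKO EB library) and for the clones against parental (4 without parental replicate 2). Counts within single lists moved by over 1.5 times in 66 of 144 such settings. With no reads in the lists, depth limits all of this by an amount that is unknown.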
